A study of Mus musculus with 7 samples.

Results

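Slices of adult mouse liver kept in culture were examined for the genes that move and store glucose: transporters, the enzymes of glycolysis and gluconeogenesis, and enzymes of glycogen and of the pentose phosphate pathway. The 34 genes were chosen by symbol, and 35 of the 55487 rows of the count table carried one of these symbols, because Aldoa stands in the annotation with a second identifier that had no counts. Precision-cut liver slices (PCLS) came from healthy male Balb/c mice and were all collected on day 3 of culture. CTR slices (n = 3) received medium without valproic acid and VPA slices (n = 4) received 2.5 mM valproic acid (VPA), a histone deacetylase inhibitor also used as an antiepileptic drug. Slices of both groups carry the injury of cutting, and no transgene was used. The study's methods count each mouse as 1 biological repeat, but the labels do not tie a library to a mouse. Of the slice culture numbers, 3 occur in both groups, so slices with and without VPA may come from the same mice. Values with the culture number as a block are given where they change a call. VPA 1 is the only library with its culture number, so with that block it adds nothing to the comparison of the groups.

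Glycolysis splits glucose into pyruvate, and gluconeogenesis, a main task of hepatocytes, runs most of the same enzymes in reverse with a few steps of its own. At many steps the genome holds several genes: hepatocytes use one form (for example Pklr and Slc2a2) that suits a tissue that both takes up and releases glucose, while most other cells use forms such as Pkm and Slc2a1. Reads were taken from the 3′ ends of transcripts, so counts do not grow with transcript length. Levels of different genes are set side by side on that ground, although gene copies, overlapping genes and the annotated ends of transcripts also bear on them.

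Libraries held 1743675 to 4773750 counts in CTR and 1400887 to 3102450 in VPA. Levels are given as CPM, counts per 1000000 counts on tested genes after TMM scaling, and 1 count was therefore worth a different level in each library; a count of 0 allowed a level of up to 0.591 to 2.41 CPM, counting error only. Only 20 of the 35 rows had a count in every library, and 24 were high enough to be tested. The glucose genes took 0.219% to 0.294% of all counts in CTR and 0.165% to 0.212% in VPA, without overlap. Hepatocyte markers were present (Alb at 827 to 2175 CPM in CTR and 785 to 5066 in VPA), although Cps1 reached at most 22.9 CPM and Ass1 was at 0 in all libraries. The summed level of the 20 hepatocyte markers overlapped between the groups, at 10704 to 25348 CPM in CTR and 7706 to 21898 in VPA. The 15 stellate cell and myofibroblast markers summed to 3944 to 7043 CPM in CTR and 2636 to 4528 in VPA, and the 12 endothelial markers to 474 to 552 CPM in CTR and 159 to 410 in VPA. Erythroid and neutrophil markers were at or near 0. In whole slices, fewer cells of a type and less RNA per cell cannot be told apart.

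No gene of the set passed the test across all genes. With edgeR's quasi-likelihood test and Benjamini-Hochberg adjustment, 0 of the 24 tested members had an adjusted p under 0.05 (smallest 0.351), where 1 of 10876 genes did (0.00919%), and limma-voom also called 0 members and 1 gene. DESeq2 called 0 members and 154 of 26086 genes (0.590%), 115 lower and 39 higher. At an unadjusted p under 0.05, 5 members were lower with VPA (Pkm, Pgam1, Ldha, Pfkl and Eno1), which is 20.8% of those tested against 4.62% of all genes, and 0 were higher against 3.65% of all genes. The CPM of 6 members lay lower in all VPA libraries than in any CTR library (25.0% against 7.41% of all genes), and no member lay higher in all of them against 4.44% of all genes. The median log2 fold change was -0.27 over the 24 members and -0.06 over all genes tested, with 15 members below 0 and 9 above. Differences given below for single genes are therefore differences between these libraries that did not pass the test over all genes.

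Of the 5 lower members, 3 belong to the late steps of glycolysis. Pkm (ENSMUSG00000032294, chr9:59656368-59679375, plus strand, GRCm38), the pyruvate kinase that makes pyruvate in most tissues outside the liver, had 489, 463 and 528 CPM in CTR 1 to 3 and 259, 302, 285 and 401 CPM in VPA 1 to 4. All VPA libraries were under all CTR libraries. The log2 fold change was -0.66 (SE 0.174, edgeR p = 0.00572, adjusted p = 0.351), and the exact two-sided permutation test over the 35 ways to split the libraries gave p = 0.0571, where the smallest possible is 0.0286. Pgam1 (ENSMUSG00000011752, chr19:41911923-41918660, plus strand, GRCm38), the phosphoglycerate mutase of the step before enolase, had 156, 183 and 211 CPM in CTR and 78.3, 104, 144 and 133 CPM in VPA. The groups were again apart, by a log2 fold change of -0.68 (SE 0.232, edgeR p = 0.0206, adjusted p = 0.514, exact permutation p = 0.0286). Eno1 (ENSMUSG00000063524, chr4:150236721-150248879, plus strand, GRCm38), the enolase between both, had 130, 109 and 191 CPM in CTR and 41.8, 99.0, 96.3 and 62.7 CPM in VPA. Its highest VPA library lay just under its lowest CTR library, and the log2 fold change was -0.93 (SE 0.336, edgeR p = 0.0261, adjusted p = 0.541, exact permutation p = 0.0286). Eno1 cannot be separated from Eno1b, a gene copy that shares 1736 bases with it at 100% identity and held 1330 counts beside the 1820 of Eno1; Eno1b had 103 ± 35.9 CPM (SD, n = 3) in CTR and 60.5 ± 20.2 (n = 4) in VPA.

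Ldha (ENSMUSG00000063229, chr7:46841475-46855627, plus strand, GRCm38), the lactate dehydrogenase that turns pyruvate into lactate, had 284, 243 and 373 CPM in CTR and 151, 248, 185 and 202 CPM in VPA. VPA 2 lay above CTR 2, so the groups overlapped, with a log2 fold change of -0.61 (SE 0.216, edgeR p = 0.0242, adjusted p = 0.534, exact permutation p = 0.0857). Pfkl (ENSMUSG00000020277, chr10:77986947-78010083, minus strand, GRCm38), the liver form of phosphofructokinase at the committed step of glycolysis, had 42.6, 48.3 and 75.1 CPM in CTR and 17.6, 5.53, 28.9 and 2.27 CPM in VPA. No VPA library reached a CTR library, and this was the largest difference of the 5, a log2 fold change of -2.04 (SE 0.739, edgeR p = 0.0258, adjusted p = 0.539, exact permutation p = 0.0286). The VPA levels of Pfkl rested on few counts, 3 in VPA 4 and 18 in VPA 2. With the culture number as a block, 4 of the 5 kept an unadjusted p under 0.05 and Ldha did not. Without CTR 3, only Pkm of the 5 kept an unadjusted p under 0.05, and 396 of 12477 genes were lower at that threshold. Without VPA 2 the number of lower members was 3, and 439 of 10381 genes were lower.

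**Figure D1:**
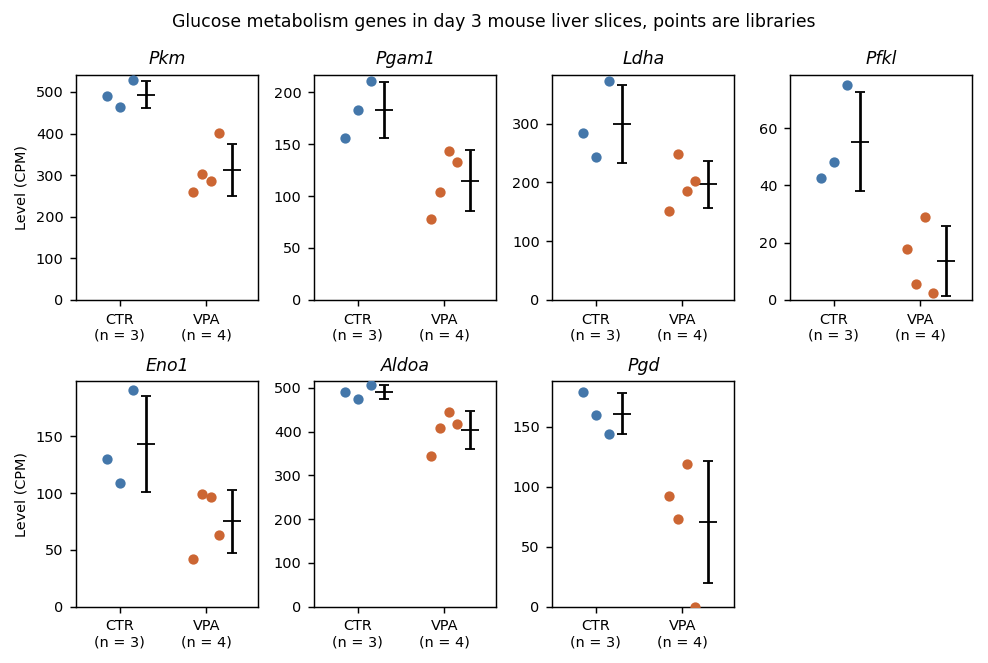
Level in CPM (vertical axis, from 0) of the 7 glucose metabolism genes with an unadjusted p under 0.05 or with no overlap between groups, in CTR (blue, n = 3) and VPA (orange, n = 4) libraries, with mean and SD in black. Pkm lies between 463 and 528 CPM in CTR and between 259 and 401 CPM in VPA, while the Ldha points of the groups overlap and 1 VPA library is at 0 for Pgd.

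Aldoa and Pgd were the other members whose groups did not overlap, both with an unadjusted p above 0.05. Aldoa, the aldolase of muscle and most other tissues and the member with most counts (7543), had 491, 475 and 507 CPM in CTR and 343, 409, 446 and 418 CPM in VPA, a log2 fold change of -0.28 (edgeR p = 0.0698, adjusted p = 0.65, exact permutation p = 0.0571). Pgd, the phosphogluconate dehydrogenase of the oxidative pentose phosphate pathway, had 179, 160 and 144 CPM in CTR and 92.1, 72.9, 119 and 0 CPM in VPA. VPA 4 thus had no count of a gene seen at 72.9 CPM or more in every other library, and the log2 fold change was -1.18 with an SE of 0.937 (edgeR p = 0.245, adjusted p = 0.865, exact permutation p = 0.0571), or -0.78 without VPA 4, when its unadjusted p was under 0.05. G6pdx, the first enzyme of that pathway, also had no count in VPA 4 and otherwise had 34.6 to 39.3 CPM in VPA against 11.5 to 23.7 CPM in CTR. Its log2 fold change was 0.67, and -0.092 with the culture number as a block. It ran from 0.42 without CTR 3 to 1.07 without VPA 4, when its unadjusted p was under 0.05. Exons of G6pdx share 278 bases with Ikbkg on the other strand, which held 661 counts beside the 410 of G6pdx. Ikbkg lay lower in all VPA libraries than in any CTR library. With no strand setting stated, reads of G6pdx and Ikbkg cannot be told apart there.

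The other glycolysis genes did not separate the groups. Gpi1, glucose phosphate isomerase, had 153 ± 18.9 CPM in CTR and 128 ± 17.4 in VPA (SD, n = 3 and 4 here and below). Tpi1, triosephosphate isomerase, had 123 ± 22.1 and 128 ± 26.4 CPM, a log2 fold change of 0.06 with a 95% interval from -0.43 to 0.56. Pgk1, phosphoglycerate kinase, had 46.6 ± 5.65 and 45.8 ± 8.97 CPM, a log2 fold change of -0.02 with a 95% interval from -0.55 to 0.51. For these isomerases and the kinase the libraries of the groups overlapped. Gapdh had 31 ± 10.2 and 46.4 ± 16.2 CPM, with a log2 fold change of 0.59 that ran from 0.34 without CTR 1 to 0.79 without VPA 4, when its unadjusted p was under 0.05. In the genome 99 gene copies resemble it, 36 of them with 276 counts in all beside its own 664. Pfkfb3, which makes the activator of phosphofructokinase, had 12.9 ± 3.26 and 11.7 ± 11.0 CPM and no count in VPA 1.

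**Figure D2:**
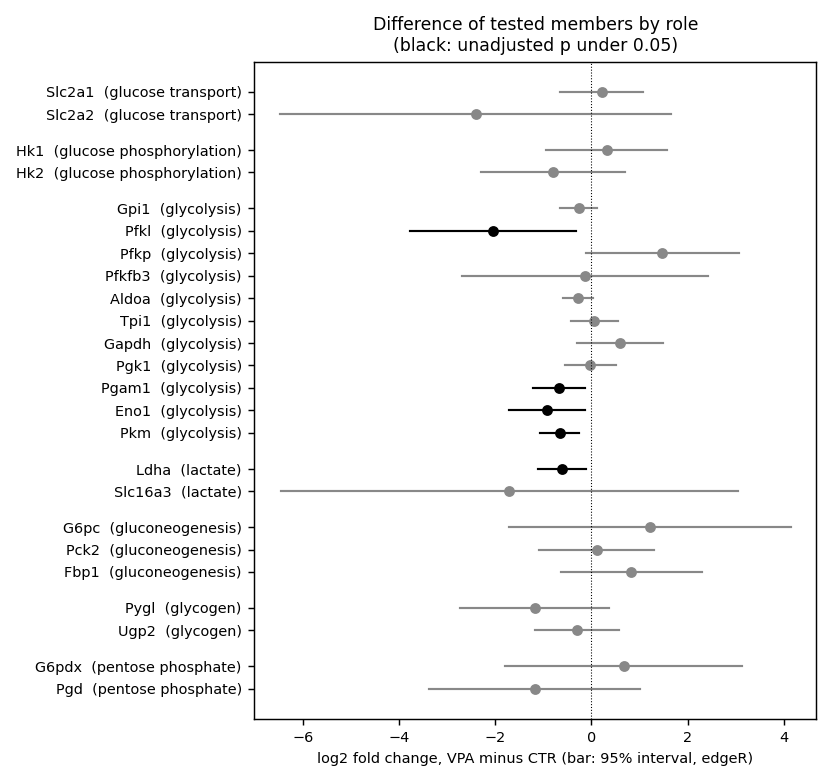
Log2 fold change of VPA against CTR (horizontal axis) for the 24 tested members, grouped by role, with bars for the 95% interval from edgeR and black for an unadjusted p under 0.05. Pfkl at -2.04 lies farthest left of the 5 black points, Slc2a2 and Slc16a3 have the widest intervals, and all 3 gluconeogenesis points lie right of 0 with intervals that include it.

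Of the gluconeogenesis genes 3 were tested, and none passed the test. Each had a higher mean with VPA. With the culture number as a block, which also takes VPA 1 out of the comparison, the log2 fold change was -0.34 for G6pc and -0.29 for Pck2. Leaving out 1 library brought G6pc down to 0.24 (without VPA 1) and Fbp1 to 0.26 (without VPA 3). G6pc, the glucose 6-phosphatase that releases free glucose, had 3.94, 5.72 and 2.74 CPM in CTR and 24.2, 5.23, 9.63 and 0 CPM in VPA, a log2 fold change of 1.21 with an SE of 1.26. Fbp1, fructose bisphosphatase, had 17 ± 8.59 and 30.1 ± 21.4 CPM (log2 fold change 0.83, SE 0.63), and Pck2, the mitochondrial phosphoenolpyruvate carboxykinase, had 14.3 ± 1.04 and 15.5 ± 7.6 CPM. Spread between VPA libraries exceeded the difference for all 3 genes, and VPA 1 and VPA 3 were the higher libraries in each. Pck1, the cytosolic carboxykinase that limits gluconeogenesis in liver, was too low to test, with 0, 1.97 and 3.29 CPM in CTR and 20.2, 1.23, 12.8 and 0 CPM in VPA. VPA 1 and VPA 3 were again the highest, and these 2 libraries also had the highest summed hepatocyte markers among VPA (18841 and 21898 CPM, against 12450 and 7706 in VPA 2 and VPA 4). In CTR 3, the CTR library with the highest sum (25348 CPM), Fbp1 and Pck1 were at their highest CTR level and G6pc and Pck2 at their lowest; the part of this in the values was not tested. Pcx, pyruvate carboxylase, had 63 counts in 3 libraries, and Slc37a4, the transporter that brings glucose 6-phosphate to G6pc, had 5.65 ± 2.87 and 2.31 ± 1.65 CPM.

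The 2 tested glycogen genes did not separate the groups. Pygl, the liver glycogen phosphorylase, had 52.4, 25.6 and 70.7 CPM in CTR and 29.4, 23.4, 3.21 and 31 CPM in VPA, with overlap and a log2 fold change of -1.18 (SE 0.663). Ugp2, which makes the sugar nucleotide for glycogen, had 58.9 ± 27.4 and 48 ± 16.7 CPM, with a log2 fold change of -0.29 that was 0.13 without CTR 3, and Gys2, the liver glycogen synthase, had 7 counts, all in VPA 3. Among the transporters and first steps, Slc2a1, the widespread glucose transporter, had 32.5 ± 3.85 and 38.0 ± 14.9 CPM and Hk1 28.7 ± 1.32 and 35.3 ± 23.0. The CTR libraries were close to each other for both genes and the VPA libraries spread around them. Hk2, a hexokinase of muscle and growing cells, had 16.5, 21.5 and 16.4 CPM in CTR and 6.53, 5.84, 5.62 and 24.2 CPM in VPA. In VPA 1, 2 and 3 it lay under all CTR libraries and in VPA 4 above them, and the log2 fold change was -0.79, or -1.60 without VPA 4, when its unadjusted p was under 0.05. Slc16a3, which exports lactate from glycolytic cells, had counts in 3 libraries only, at 8.74 ± 7.96 and 2.81 ± 5.62 CPM.

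Forms typical of hepatocytes were set against the other forms of the same enzyme or transporter at 12 steps. In counts summed over the libraries of a group, the other forms held more at 6 steps in CTR and at 7 in VPA. The direction of these sums differed between the groups at 3 steps: phosphofructokinase, glycogen phosphorylase and glucose 6-phosphatase. By library, only phosphofructokinase differed throughout. At glycogen phosphorylase and glucose 6-phosphatase, VPA 1 and VPA 3 held more of the liver form and VPA 2 and VPA 4 more of the other forms. In every library the other forms held more at 3 steps (glucose transporter, pyruvate kinase and phosphoenolpyruvate carboxykinase) and the liver form at 4. For pyruvate kinase, Pkm held 6817 counts and the liver gene Pklr 33, so that at least 95.4% of the counts of either gene in any library came from Pkm (exact 95% interval 92.8% to 97.3% in VPA 3, the library with the lowest share). Exons of Pklr overlap Hcn3 on the other strand, and the strand setting of the counting is not given in the sources used here. Hk3, the hexokinase typical of blood cells, held 22 counts, all in VPA 2, and Aldoc, the aldolase of brain, held 136 counts in 3 libraries. Pkm thus outnumbered Pklr in CTR and VPA alike.

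For transport, Slc2a2, the glucose transporter of hepatocytes, had 7.88, 5.52 and 31.2 CPM in CTR and 11.1 CPM in VPA 1, and no count in VPA 2, VPA 3 and VPA 4. Slc2a1 made up 52.1% to 83.6% of the counts of both in CTR and 76.1% in VPA 1 (exact 95% interval 64.5% to 85.4%). The 0 counts of Slc2a2 in the other VPA libraries allowed a Slc2a2 share of up to 5.44% to 5.96% by the same exact interval, which covers counting error only. The log2 fold change of -2.41 had an SE of 1.74 (edgeR p = 0.203, adjusted p = 0.841, exact permutation p = 0.114), and it ran from -8.24 without VPA 1 to -1.30 without CTR 3. With the culture number as a block it was -7.74, with an unadjusted p under 0.05. Without VPA 1, and with that block, the VPA libraries compared had no count of Slc2a2. The values -8.24 and -7.74 therefore give a direction and not the size of a difference. At 4 steps the form typical of liver, or shared by liver and other tissues, held more in every library: Ldha (4171 counts) over Ldhb (6), Slc16a1 (1351) over Slc16a3 (120), Eno1 (1820) over Eno2 (147) and Fbp1 (334) over Fbp2 (0). Pygl held 392 counts in CTR and Pygb 203, but in VPA Pygl held 166 and Pygb 208, all of the latter in VPA 2 and VPA 4. G6pc held 44 counts in CTR and G6pc3 75, and in VPA 66 and 38. Of the 66, 37 were in VPA 1, and G6pc3 held more than G6pc in VPA 2 (31 and 17) and VPA 4 (7 and 0). Elsewhere the counts were low: Pck2 had 237 and Pck1 67, Pfkfb3 245 and Pfkfb1 11, Gys1 140 and Gys2 7.

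**Figure D3:**
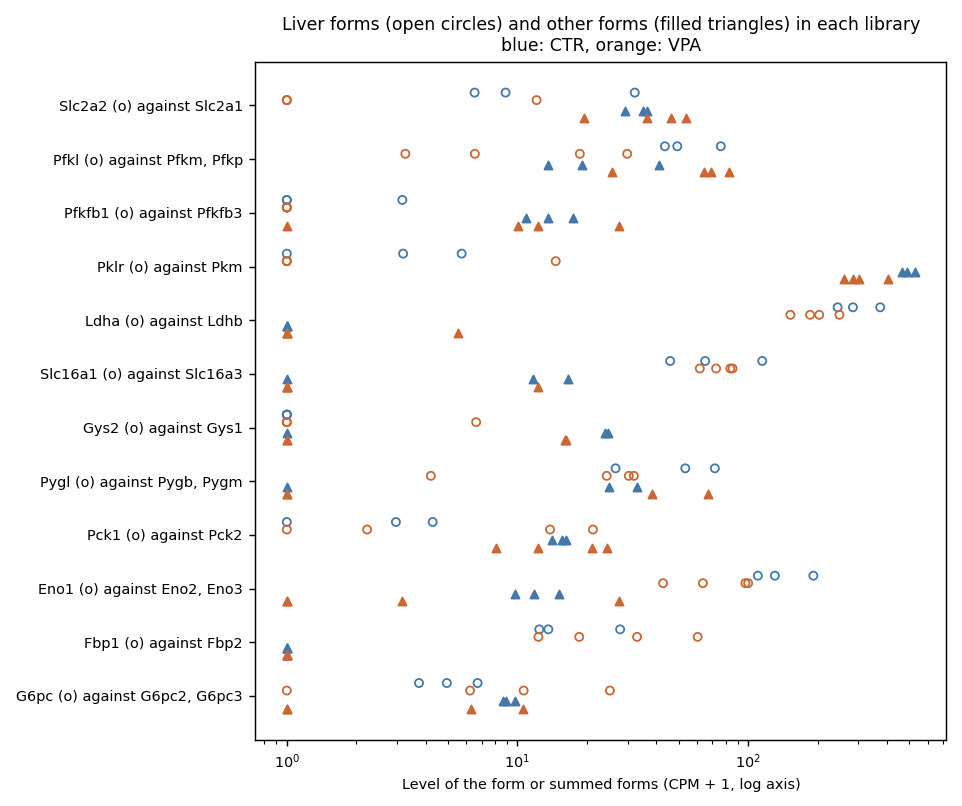
Level in CPM plus 1 (log axis) of the liver form (open circles) and of the summed other forms (filled triangles) at 12 steps of glucose metabolism, each point 1 library, CTR in blue and VPA in orange. Pkm lies at 259 CPM or more in all 7 libraries while Pklr is at 13.6 CPM or less, and phosphofructokinase (Pfkl against Pfkm and Pfkp) has the circle right of the triangle of the same library in CTR and left of it in VPA.

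At 1 step, phosphofructokinase, both sides had counts in every library. There the libraries of the groups did not overlap in the balance of forms. Pfkp, the platelet form, had 36.6, 16.2 and 4.93 CPM in CTR and 21.5, 60.0, 76.3 and 58.2 CPM in VPA. Of the 4 VPA libraries, 3 were above all CTR libraries and VPA 1 was not, with a log2 fold change of 1.48 (SE 0.678, edgeR p = 0.0629, adjusted p = 0.635, exact permutation p = 0.0857). It ran from 1.01 without CTR 3 to 2.30 without CTR 1, and with the culture number as a block it was 2.05 with an unadjusted p under 0.05. Pfkm, the muscle form, was low in both groups (4.40 ± 2.95 and 5.54 ± 1.94 CPM). Pfkm and Pfkp together made up 48.6%, 27.3% and 14.4% of the counts of the 3 genes in CTR and 58.5%, 92.5%, 73.9% and 96.6% in VPA. CTR 1 (exact 95% interval 41.6% to 55.5%) and VPA 1 (45.6% to 70.6%) were nearest to each other and their intervals overlapped. The log2 ratio of the other forms to Pfkl averaged -1.32 ± 1.2 in CTR and 2.37 ± 1.70 in VPA, a difference of 3.69 without overlap (3.11 without CTR 3 to 4.33 without VPA 1), which is given as a description with no test. Exons of Pfkp share 748 bases with Pitrm1 on the opposite strand, which had 58, 106 and 50 counts in CTR and 0, 0, 53 and 0 in VPA. With no strand setting stated, reads of Pfkp and Pitrm1 cannot be told apart, which bears on the levels of Pfkp and on the shares.

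**Figure D4:**
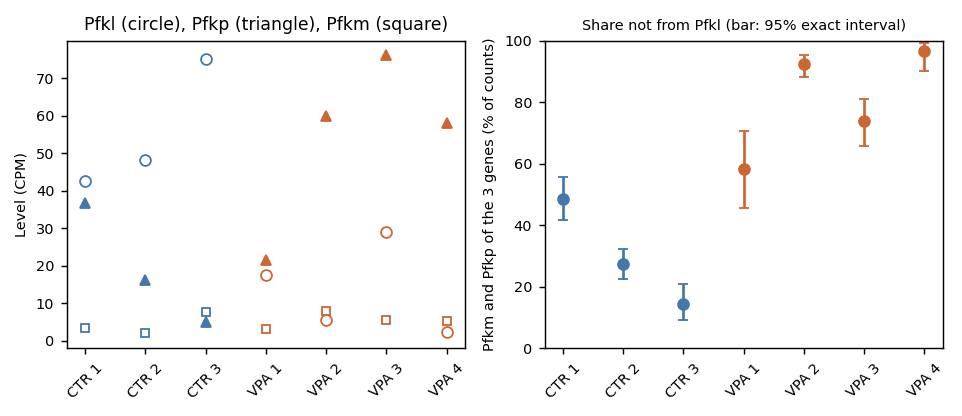
Left, level in CPM of the phosphofructokinase genes Pfkl, Pfkp and Pfkm in each library; right, share of counts of the 3 genes that came from Pfkm and Pfkp, with exact 95% intervals that cover counting error only and not reads of Pitrm1 that may count as Pfkp. The share runs from 14.4% to 48.6% in CTR (blue) and from 58.5% to 96.6% in VPA (orange).

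Windows around the start sites of these genes were read from RefSeq (GRCm38.p6) for 33 of the 34 genes, each with 250 bases before and 50 after the start. ACGTG is a form of the core of the element bound by hypoxia-inducible factors, which are known activators of glycolysis genes. It was searched on both strands, where it also reads CACGT and lies inside CACGTG, the E-box bound by MYC and related factors. ACGTG on either strand was in 21 of 54 windows of the members (38.9%) and in 19.6% of all 32851 windows, and CACGTG in 4 of the 54 (7.41%) and in 7.15% of all. Of the 24 tested members 14 had a match in at least 1 window, 10 of them with a log2 fold change below 0, and of the 10 without a match 5 were below 0. Among the 5 lower members, Ldha, Pkm and Pgam1 had a match, and their windows are shown with the matches in capitals. ACGTG was on neither strand in the windows of Eno1 and Pfkl, and other forms of the core were not searched.
Ldha, chr7:46845554-46845853, plus strand: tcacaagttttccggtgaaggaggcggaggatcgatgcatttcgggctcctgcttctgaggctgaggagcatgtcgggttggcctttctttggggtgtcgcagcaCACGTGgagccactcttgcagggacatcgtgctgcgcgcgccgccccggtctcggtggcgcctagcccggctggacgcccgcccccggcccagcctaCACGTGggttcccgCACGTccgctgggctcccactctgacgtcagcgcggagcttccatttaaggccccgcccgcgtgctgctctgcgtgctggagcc
Pkm, chr9:59656977-59657276, plus strand: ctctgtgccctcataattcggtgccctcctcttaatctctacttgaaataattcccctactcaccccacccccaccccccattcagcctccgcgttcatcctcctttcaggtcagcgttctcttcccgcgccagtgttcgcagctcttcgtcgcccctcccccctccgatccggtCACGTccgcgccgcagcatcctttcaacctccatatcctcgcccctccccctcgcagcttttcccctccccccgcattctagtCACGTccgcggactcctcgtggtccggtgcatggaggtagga
Pgam1, chr19:41911621-41911920, plus strand: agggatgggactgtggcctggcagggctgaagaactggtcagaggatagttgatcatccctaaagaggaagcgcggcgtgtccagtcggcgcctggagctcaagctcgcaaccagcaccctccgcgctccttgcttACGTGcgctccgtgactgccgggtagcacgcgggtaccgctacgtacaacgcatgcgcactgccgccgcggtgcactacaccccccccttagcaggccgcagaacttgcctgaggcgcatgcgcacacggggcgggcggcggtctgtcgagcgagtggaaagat
The Ldha window holds 2 copies of CACGTG and a further CACGT close to the second, the Pkm window has CACGT at 2 places, and Pgam1 has 1 ACGTG. A second Pkm window and a second Ldha window had none. Slc2a1 and Pgk1, whose levels did not separate the groups, also had a match, and a match is a stretch of letters and not a measured site.

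Beyond the 34 genes, 147 other genes of these pathways and their regulators were looked up, of which 114 were tested. None had an adjusted p under 0.05 in edgeR, DESeq2 or limma-voom, while in edgeR 3 were lower and 7 higher at an unadjusted p under 0.05 (2.63% and 6.14%, against 4.62% and 3.65% of all genes), and the median log2 fold change was 0.04. Without overlap, 4 were lower and 9 higher (3.51% and 7.89%, against 7.41% and 4.44% of all genes). Of the 6 with the smallest p, 5 were higher. Got1, the cytosolic aspartate aminotransferase that feeds gluconeogenesis, had 19.3, 16.8 and 20.3 CPM in CTR and 82.9, 55.7, 32.9 and 35.5 CPM in VPA, a log2 fold change of 1.47 (SE 0.377, edgeR p = 0.005, adjusted p = 0.336, exact permutation p = 0.0857). Ppargc1a, a coactivator of gluconeogenesis genes, had 4.33, 3.35 and 10.4 CPM in CTR and 17, 18.8, 22.5 and 23.4 CPM in VPA (log2 fold change 1.77). Foxo1, a transcription factor that drives G6pc and Pck1 in fasting, had 34.4 ± 6.33 and 67.1 ± 30.4 CPM. Prkaa2, a catalytic subunit of the AMP-activated kinase, had 12.4 ± 2.70 and 28.1 ± 3.71 CPM, and Mxi1, a MYC antagonist on the hypoxia list, had 37.0 ± 2.28 and 61.7 ± 10.3 CPM. These 5 genes, chosen by their p, are among the 9 without overlap, with adjusted p between 0.336 and 0.541 in edgeR.

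Gbe1, the glycogen branching enzyme, was the lower one, with 54.4, 40.0 and 61.9 CPM in CTR and 15, 11.7, 0 and 15.9 CPM in VPA, a log2 fold change of -2.27 (SE 0.845, adjusted p = 0.55). The other 2 lower genes, named after their values were seen, were Pgls (120 ± 25.1 and 63.5 ± 28.0 CPM) and Tkt (91.2 ± 38.4 and 47.3 ± 17.4 CPM), which like Pgd belong to the pentose phosphate pathway, and both overlapped between the groups. The remaining higher genes, also named after their values were seen, were Igfbp1, a secreted liver protein repressed by insulin (933 ± 615 and 2407 ± 895 CPM), and Pdk4, the kinase that keeps pyruvate out of the mitochondrial cycle (9.46, 23.7 and 0 CPM in CTR and 78.3, 83.6, 24.9 and 86.1 in VPA). By list, the same threshold was passed upward by 1 and downward by 0 of 16 tested genes of pyruvate and lactate (median 0.22), by 4 and 0 of 26 regulators (median 0.11), by 1 and 0 of 14 genes of gluconeogenesis and glycerol (median 0.29), and by 1 and 0 of 17 hypoxia genes (median -0.39). The 8 pentose phosphate genes had 0 higher and 2 lower (median -0.19), the 11 glycogen genes 0 and 1 (median -0.01), and the 9 further glycolysis genes (median 0.36) and 13 genes of fructose and galactose (median -0.23) had none.

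**Figure D5:**
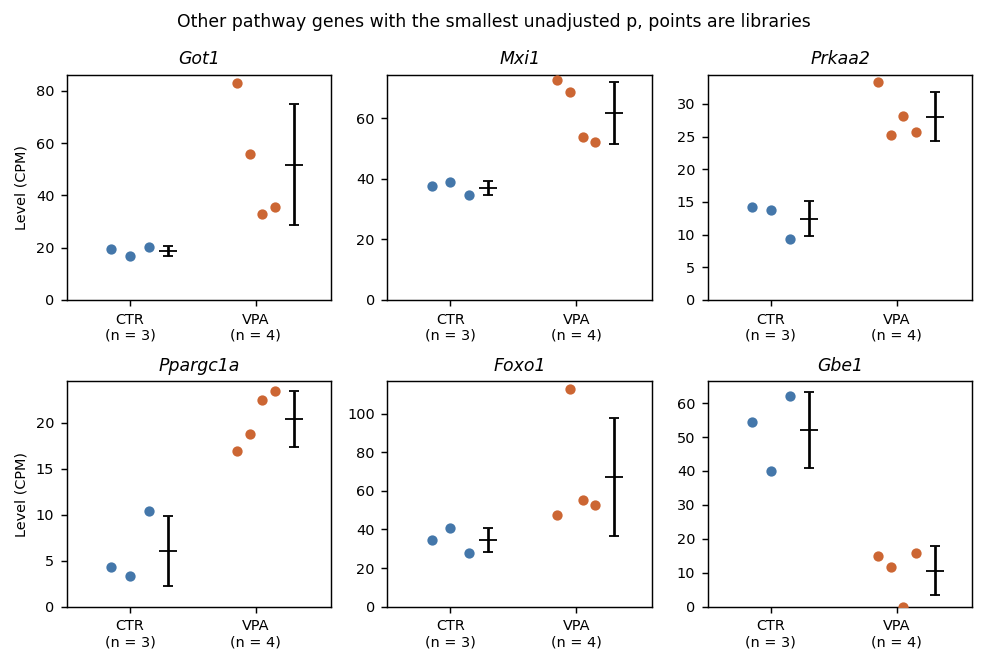
Level in CPM (vertical axis, from 0) of the 6 further pathway genes with the smallest unadjusted p, in CTR (blue, n = 3) and VPA (orange, n = 4) libraries, with mean and SD in black. Got1, Mxi1, Prkaa2, Ppargc1a and Foxo1 are higher in all VPA libraries and Gbe1 is lower, from 40.0 to 61.9 CPM in CTR to at most 15.9 CPM in VPA.

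Cells other than hepatocytes express Pkm, Aldoa, Ldha and Eno1, and the stellate cell and endothelial marker lists had medians below 0. Of 15 stellate cell and myofibroblast markers tested, 5 were lower and 0 higher at an unadjusted p under 0.05 (median log2 fold change -0.95), where 4.62% of all genes were lower. The lower ones were Col1a1, Col1a2, Col3a1, Sparc and Vim, with Vim at 645, 597 and 722 CPM in CTR and 213, 367, 318 and 341 in VPA. Means of Dcn (848 and 1204 CPM), Lum (21.7 and 39.8) and Timp1 (89.3 and 114) were higher in VPA, with overlap. Of 11 endothelial markers tested, 1 was lower and 0 higher (median -0.61), and 5 were lower without overlap, as 7.41% of all genes were. The summed levels of the endothelial markers given above did not overlap between the groups either, while those of the stellate cell and myofibroblast markers did. Of 18 hepatocyte markers tested, 0 passed that threshold in either direction (median 0.13). The macrophage markers had a median of 0.26 over 8 tested genes, with summed levels of 321 to 472 CPM in CTR and 339 to 604 in VPA, and the cholangiocyte markers a median of -0.42 over 7. The part of these marker differences in the levels of the glucose genes was not tested.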

How the data were processed

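Day 3 mouse liver slices were sequenced as QuantSeq 3′ libraries, which carry no molecular identifiers here. Per the study's methods, the authors mapped reads with STAR to GRCm38.p6, assembled genes and transcripts with StringTie and generated raw counts; the tool that made the deposited counts, versions, strand setting and treatment of multiply mapped reads are not given in the sources used here. The deposited values are raw counts, 55487 Ensembl genes in 7 libraries, of which 26086 had a count. The columns of the table matched the samples by title. Gene symbols and exons came from GENCODE (GRCm38) and promoter windows from RefSeq.

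CTR (n = 3) was compared with VPA (n = 4) by edgeR 4.0.16 (R 4.3.3): filterByExpr, which left 10876 genes, TMM scaling, robust quasi-likelihood fit with condition only, and Benjamini-Hochberg adjustment over all tested genes. Single genes were also tested by an exact two-sided permutation test over 35 splits (scipy 1.17.1). The 95% intervals are t intervals from the fit, and shares have exact Clopper-Pearson intervals. Isoform ratios used counts plus 2. Gene copies were sought with BLAST 2.17.0, at 95% identity over at least 90 bases. Members were named with values in every library where the unadjusted p was under 0.05 or the groups did not overlap, other members by group means (by library for Pfkp, Slc2a2, Hk2, G6pc, Pck1 and Pygl, chosen after their values were seen, and by total counts for rarely detected ones), and up to 6 further pathway genes by smallest p. Alternatives were DESeq2 1.42.0, limma-voom 3.58.1, other scalings and filters, replicate blocks and leaving out each library. The members, lists and isoform pairs were chosen with earlier results of these data known. The alternatives that count members at an unadjusted p under 0.05 were added after seeing the data.

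A few genes of these pathways are not reported here.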

Additional observations from a re-analysis of the deposited data

Results flagged for a closer look

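In the 4 VPA libraries, 26 measures (the levels of the 24 tested members, 1 isoform ratio and the total count) were searched for a library far from the others. The search found 5, where chance gives about 1 in 20 for normally distributed values. That rate does not hold for genes with few counts. A gene with a count in only 1 of the 4 libraries, such as Slc2a2 or Slc16a3, is always found. Slc2a2 was found only in VPA 1, at 11.1 CPM. Hk2 was at 24.2 CPM in VPA 4, above 5.62 to 6.53 CPM in the other VPA libraries. Slc16a3 had a count only in VPA 3, at 11.2 CPM. G6pdx was at 0 in VPA 4, where the other VPA libraries had 34.6 to 39.3 CPM. VPA 2 held 3102450 counts, more than the 1400887 to 1515954 of the other VPA libraries.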

How the results depend on the processing

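No glucose gene was called at an adjusted p under 0.05 in the alternatives run (smallest adjusted p 0.0868, Pkm with DESeq2). Over all genes, where edgeR called 1, DESeq2 called 154, no filter 10, a minimum of 10 counts in every library 36, an adjusted p under 0.1 gave 2, and leaving out 1 library 0 to 2. The number of lower members at an unadjusted p under 0.05, 5 in the report, ran from 1 to 6. It was 1 without CTR 3, where 396 of 12477 genes were lower, and 6 without VPA 4, where 700 of 11259 were. It was also 6 with limma-voom (1088 of 10876 genes) and with no filter (1272 of 26086). The number of higher members, 0 in the report, was 1 with DESeq2 (481 of 26086 genes higher) and 1 with limma-voom (554 of 10876). Without 1 library it was 0 to 2, with the 2 found without VPA 4 (457 of 11259 genes higher). No source says what the slice culture number marks, and not every pair of libraries with the same culture or replicate number deviated together: deviations from group means of libraries with the same culture number correlated at 0.107, 0.0256 and 0.0546, those with the same replicate number at -0.0539, 0.0546 and 0.107. With a replicate block by culture number, VPA 1 has no partner and drops out of the comparison, and 0 genes were called. At an unadjusted p under 0.05 Pfkp was the 1 higher member and Ldha gave way to Slc2a2 among the 5 lower. Of all 10876 genes, 508 were lower and 360 higher. Leaving out VPA 1 with no block gave the same changes among the members. With a replicate block by replicate number, VPA 4 drops out in the same way, and 0 were called. Gapdh, Fbp1 and G6pdx were the 3 higher members, and Eno1 and Ldha gave way to Pgd and Hk2 among the 5 lower. Of all 10876 genes, 612 were lower and 372 higher. Without VPA 4 and with no block, Pgd, Hk2, Gapdh and G6pdx passed too. Of 372 log2 fold changes of members over the alternatives, 23 changed sign, in 9 of 24 members, and the cause was not tested. With limma-voom, Slc2a1 was at -0.019, Pgk1 at 0.026 and Pck2 at -0.47. Without a filter, Tpi1 was at -0.026 and Pck2 at -0.010. With the block by culture number, Hk1 was at -0.0076, Pfkfb3 at 0.15, G6pc at -0.34, Pck2 at -0.29 and G6pdx at -0.092, and with the block by replicate number Pgk1 was at 0.072. Without 1 library, Hk1 ran from -0.17 to 0.62, Pfkfb3 from -0.94 to 0.28, Tpi1 from -0.073 to 0.17, Pgk1 from -0.15 to 0.072, Pck2 from -0.17 to 0.36 and Ugp2 from -0.55 to 0.13. The values of Slc2a2, Slc16a3, G6pc, Pfkfb3 and the untested members with any count rest on 6 to 245 counts each.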
